A study of Mus musculus with 6 samples.

Results

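The BCL2 family was followed in cultured mouse liver cells through 10 genes chosen by symbol, and all 10 were among the 13595 genes of the deposited table. They comprised 3 survival members (Bcl2, Bcl2l1 and Mcl1), 2 pore-forming members (Bax and Bak1) and 5 BH3-only members (Bid, Bad, Bcl2l11, Pmaip1 and Bbc3). The pore-forming and BH3-only genes are called death members here. All 10 passed the filter on low values, a normalized read count of 1 or more in 3 or more libraries. In the annotation Bcl2 lies on chromosome 1, Bcl2l1 and Bcl2l11 on 2, Mcl1 on 3, Bid on 6 and Bax and Bbc3 on 7. Bak1 lies on 17, Pmaip1 on 18 and Bad on 19.

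Proteins of this family control whether the outer membrane of the mitochondrion is permeabilised, the step that releases cytochrome c and starts caspase activation. Survival members hold the pore formers Bax and Bak1 in check, whereas BH3-only proteins sense damage, loss of growth factors or metabolic stress and either neutralise survival members or activate the pore formers. Endothelial cells depend on growth factor signals and matrix contact that act partly through this balance.

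Poly(A) RNA was sequenced in 6 libraries from cultured liver cells of C57BL6/J mice aged 4 weeks, labelled as positive for the endothelial surface marker CD31. The contrast was labelled sex, with 3 libraries labelled male and 3 labelled female, numbered 4, 5 and 6 in each group. All 6 cultures received 100 µM indoxyl sulfate, a tryptophan metabolite that activates the aryl hydrocarbon receptor, together with 6 hours of hypoxia and nutrient deprivation. Every comparison is therefore between libraries labelled male and female under the same treatment, and the effect of the treatment itself was not analysed here. No label says whether the numbered libraries came from separate mice or cultures, so the p-values measure the spread between these libraries, which may be technical. The labels give no batch, and handling that differed between the labelled groups, if any, cannot be told apart from the label.

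The libraries held between 22303270 and 31189363 reads over the listed genes. Xist followed the labels, at no more than 0.458 in any library labelled male and at least 234 in each labelled female, but all 4 Y-linked genes examined were also read in the libraries labelled female, which goes against that label. Their means in the male and female groups were 57.0 and 52.1 for Ddx3y, 26.9 and 24.1 for Uty, 58.1 and 29.8 for Eif2s3y and 34.8 and 19.1 for Kdm5d. Groups are therefore named by label throughout, and male 4 or female 4 means the library so labelled. Male 4 stood apart from male 5 and male 6, with a chi-square statistic per gene of 43.6 and 45.4 against 5.98 between the other pair. Over all 12568 tested genes limma called 34.6% higher in the female group and 34.6% lower (adjusted p under 0.05), against which the following marker counts stand. Of 14 tested endothelial markers, 11 were lower and 2 higher, with a summed normalized read count of 2393 to 2512 in the male and 1278 to 1341 in the female group. Pecam1, which encodes CD31, was at 391 to 423 in the male and 73.5 to 74.5 in the female group, and the 2 higher markers were Ptprb and Eng. Of 8 sinusoidal markers 3 were tested and all 3 were lower, with sums of 492 to 531 and 8.12 to 9.55 that were mostly Lyve1 (470 to 513 and 4.37 to 5.48). Of 14 tested stellate, mural and fibroblast markers, 5 were higher and 9 lower, with sums of 2900 to 3738 in the male and 3575 to 4294 in the female group, which overlapped. Within that list the contractile gene Myh11 was at 1.41 to 1.79 in the male and 103 to 147 in the female group, whereas the pericyte receptor gene Pdgfrb was at 129 to 136 and 13.0 to 15.3 and the collagen gene Col3a1 at 1115 to 1553 and 205 to 242. Of 7 tested cholangiocyte and mesothelial markers, 4 were higher and 3 lower, with sums of 1654 to 2505 and 880 to 965. The 3 lower ones were Spp1, Krt19 and Sox9, while Krt7 and the mesothelial Msln (17.1 to 20.6 and 299 to 358), Wt1 and Upk3b were higher. The macrophage list (2 of 9 tested, both higher) summed to at most 14.1, the hepatocyte list (1 of 8 tested, higher) to at most 39.8 and the lymphocyte list (0 of 8 tested) to at most 0.332 in any library, while Vsig4, C1qa, C1qb, Marco and Cyp3a11 had 3 reads or fewer. The part of these marker differences in the results below was not tested, and in such bulk samples fewer cells of a type and less RNA per cell cannot be told apart.

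The family did not move as 1 block. Of the 10 members, 4 rose and 3 fell in the libraries labelled female at a limma adjusted p under 0.05, where 69.3% of all 12568 tested genes were called, 34.6% higher and 34.6% lower. edgeR on recovered reads likewise called 4 members higher and 3 lower, among 68.0% of 13199 genes. A count of 7 in 10 is thus close to the background and is no result about the family. The median log2 fold change was 0.02 over the members and 0.01 over all tested genes. By class, 1 survival member rose and 1 fell, both pore formers rose, and 1 BH3-only member rose and 2 fell.

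**Figure D1:**
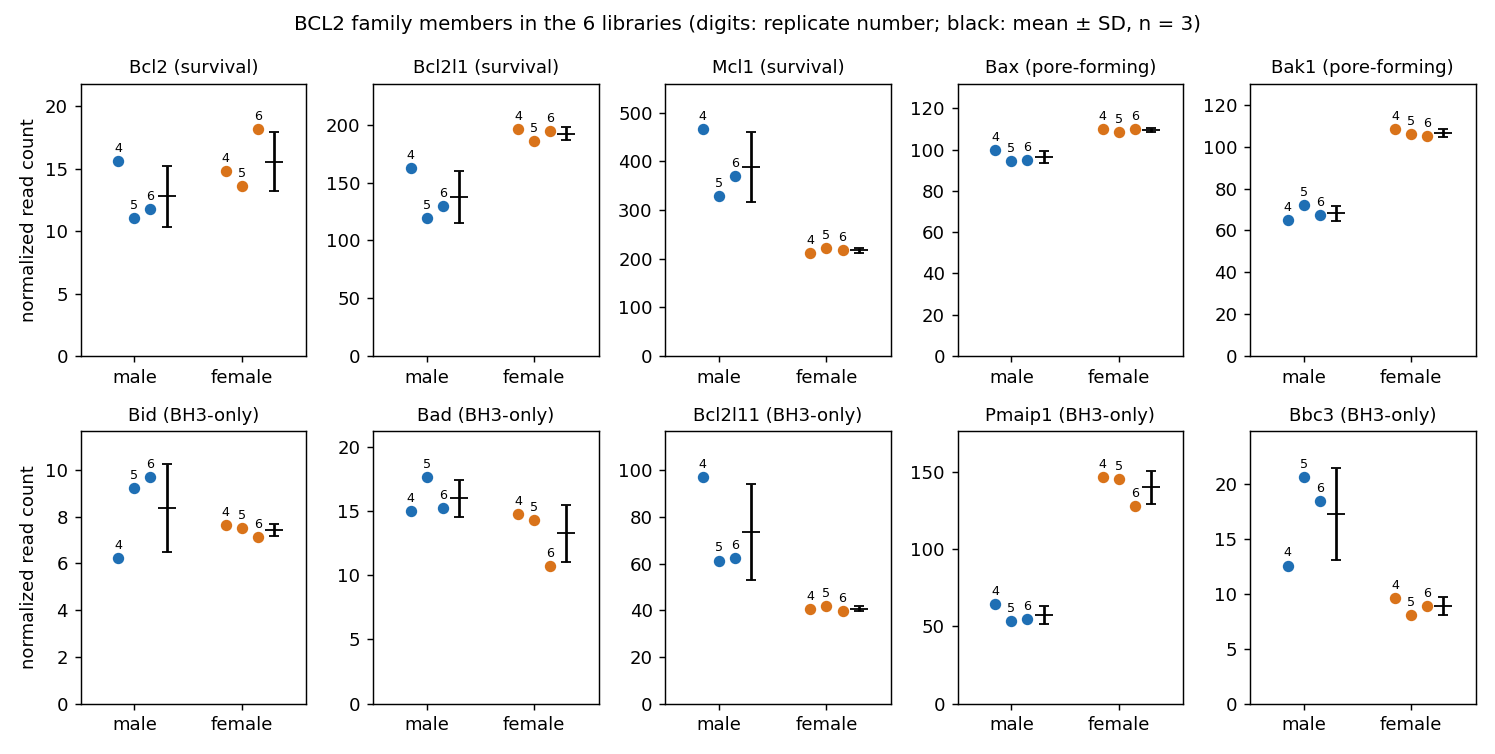
Normalized read count (y axis, from 0) of each of the 10 members in the 3 libraries labelled male (blue) and the 3 labelled female (orange), digits giving the replicate number and black bars the mean ± SD. Mcl1 is lower in all 3 female libraries and Pmaip1 higher in all 3, whereas the groups of Bcl2 and Bid overlap.

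Among the survival members, Mcl1, a short-lived protein that binds Bak1 and several BH3-only proteins, fell. Its normalized read count was 467, 328 and 371 in male 4, 5 and 6 and 211, 222 and 217 in female 4, 5 and 6. Every female library was below every male library, and the female libraries were close together. The female mean of 217 ± 5.56 (SD, n = 3) was 55.8% of the male mean of 389 ± 71.1 (SD, n = 3), and the mean difference on the log2(value + 1) scale, called log2 fold change here, was -0.82 (SE 0.12; adjusted p of 0.000297 by limma).

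Bcl2l1, which encodes BCL-XL, an inhibitor of Bax and Bak1, rose. It was read at 163, 120 and 130 in male 4, 5 and 6 and at 196, 186 and 194 in female 4, 5 and 6. The groups did not overlap, although male 4 lay nearer to the female libraries than male 5 or male 6 did. The female level was 140% of the male level, a log2 fold change of 0.49 (SE 0.11; adjusted p of 0.00314 by limma).

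Bcl2, the founding survival gene, had 15.6, 11.1 and 11.8 in male 4, 5 and 6 and 14.9, 13.6 and 18.2 in female 4, 5 and 6. Male 4 was above 2 of the 3 female libraries, and the groups overlapped. Its log2 fold change was 0.27 (SE 0.15; adjusted p of 0.146 by limma) and did not pass the threshold. Without male 4 it was 0.41 and passed (limma adjusted p 0.0112), so the call turned on this library. It was 0.16 without female 6 and 0.13 with a correction for GC content and length.

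The pore formers both rose, by unequal amounts. Bak1, which sits in the mitochondrial outer membrane, was at 65.0, 72.1 and 67.4 in male 4, 5 and 6 and at 108, 106 and 105 in female 4, 5 and 6. The groups were far apart relative to their spread, with a female level of 156% of the male level and a log2 fold change of 0.64 (SE 0.06; adjusted p of 3.23e-05 by limma). In the annotation, 25.5% of the exonic bases of Bak1 also belong to Ggnbp1 on the opposite strand, and no source used here says that counting used strand, so reads there cannot be assigned to either gene.

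Bax, which moves from the cytosol to mitochondria when activated, had 99.7, 94.6 and 95.0 in male 4, 5 and 6 and 110, 108 and 110 in female 4, 5 and 6. The groups did not overlap, but the difference was small, 113% of the male level and a log2 fold change of 0.18 (SE 0.05; adjusted p of 0.0171 by limma). Leaving out male 5, male 6, female 4 or female 5 each ended this call, with limma adjusted p from 0.0551 to 0.0636. The correction for GC content and length, by contrast, raised the log2 fold change to 0.49. Of the 50-base stretches of its longest coding transcript, 13.8% also occur in Gm45808.

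The BH3-only members went in opposite directions. Pmaip1, which encodes NOXA, a partner of MCL1, had the largest absolute log2 fold change of the 10 members. It was read at 64.4, 53.6 and 54.8 in male 4, 5 and 6 and at 147, 145 and 128 in female 4, 5 and 6. All 3 female libraries lay far above the male libraries. The female level was 243% of the male level, a log2 fold change of 1.27 (SE 0.09; adjusted p of 5.31e-06 by limma).

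Bcl2l11, which encodes BIM, a BH3-only protein that binds all survival members, fell. It was at 97.2, 61.4 and 62.3 in male 4, 5 and 6 and at 40.5, 41.8 and 39.6 in female 4, 5 and 6. The groups did not overlap, and male 4 alone was high within its group. The log2 fold change was -0.81 (SE 0.16; adjusted p of 0.00209 by limma), and without male 4 it was -0.59, still called.

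Bbc3, which encodes PUMA, a target of p53 and of FOXO factors, also fell. Its normalized read count was 12.6, 20.7 and 18.5 in male 4, 5 and 6 and 9.67, 8.05 and 8.93 in female 4, 5 and 6. The groups did not overlap, and here male 4 was the lowest male library. The female level was 51.4% of the male level, a log2 fold change of -0.86 (SE 0.17; adjusted p of 0.00202 by limma). With the correction for GC content and length it was -0.51, still called.

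Bid and Bad did not pass the threshold. Bid, which is cut by caspase 8 and links death receptors to mitochondria, had 6.22, 9.23 and 9.71 in male 4, 5 and 6 and 7.64, 7.51 and 7.12 in female 4, 5 and 6. Male 4 was below and the other male libraries above all female libraries, with a log2 fold change of -0.14 (SE 0.15; adjusted p of 0.458 by limma). Without male 4 the log2 fold change of Bid was -0.31 and passed (limma adjusted p 0.0140). Leaving out each library in turn gave -0.31 to -0.03 for Bid, and the alternatives that used all 6 libraries gave -0.19 to -0.05. In the annotation, 17.7% of its exonic bases overlap Bcl2l13 on the opposite strand. Bad, which is kept inactive by phosphorylation and 14-3-3 binding, had 15.01, 17.7 and 15.3 in male 4, 5 and 6 and 14.8, 14.3 and 10.7 in female 4, 5 and 6. Its groups were barely apart (log2 fold change -0.26; SE 0.13; adjusted p of 0.111 by limma), and its log2 fold change was -0.13 without female 6, whose value was the lowest, and -0.06 with the correction for GC content and length. In the annotation, 20.5% of its exonic bases overlap Gpr137 on the opposite strand. Over all tested genes the groups did not overlap for 74.1%, 37.1% higher and 37.0% lower in the female libraries, and they did not overlap for 4 higher and 4 lower members of 10.

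**Figure D2:**
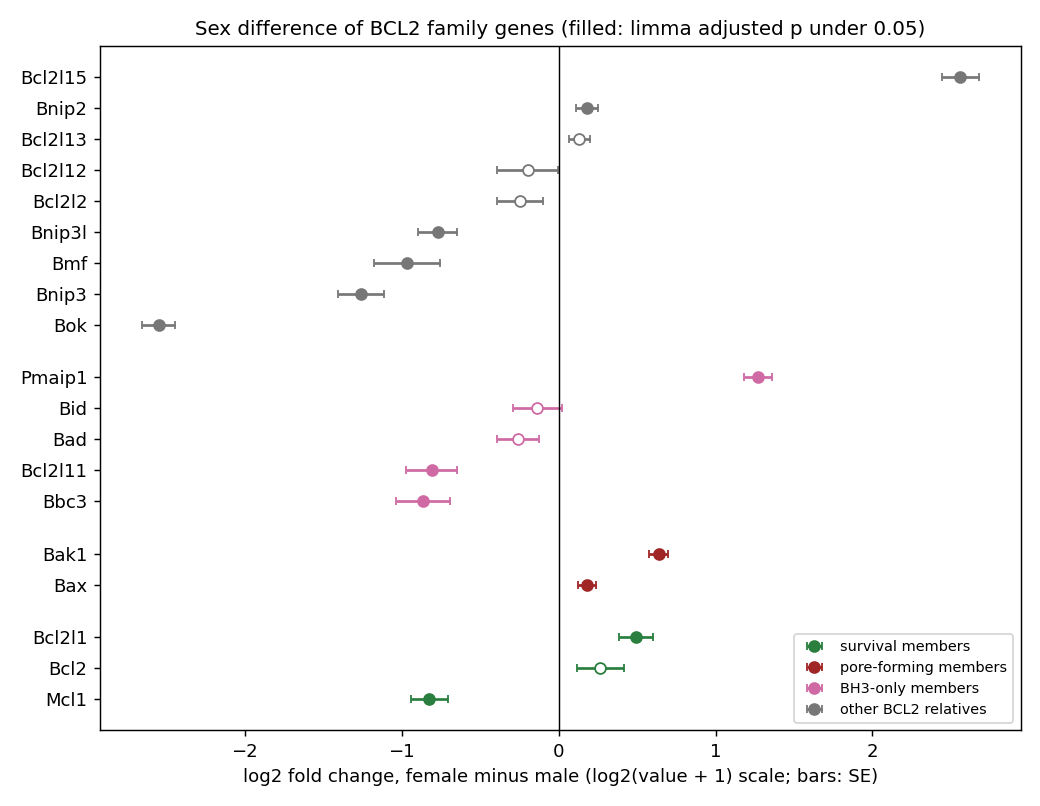
Log2 fold change, female minus male, on the log2(value + 1) scale (x axis) with its SE for the 10 members and the 9 tested relatives (y axis), coloured by class and filled where the limma adjusted p was under 0.05. Bok lies at -2.55 and Bcl2l15 at 2.56, further out than any of the 10 members, of which Pmaip1 reaches 1.27 and Bbc3 -0.86.

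The sequences just upstream of the start site are shown for the survival members that moved apart, for the pair of BH3-only genes that fell together and for Bnip3, a relative described below. They are RefSeq sequences on GRCm38.p6 for the most upstream start of each gene, 5′ to 3′ on the gene's strand, and stop where an annotated exon begins. The regions are chr2:152831729-152831978 (minus strand) for Bcl2l1, chr3:95658471-95658720 (plus strand) for Mcl1, chr2:128125788-128126037 (plus strand) for Bcl2l11, chr7:16309333-16309582 (plus strand) for Bbc3 and chr7:138909520-138909756 (minus strand) for Bnip3. Capitals mark matches, on both strands, to ACGTG (core of sites for hypoxia-inducible factors), GCGTG (core of sites for the aryl hydrocarbon receptor), TGTTTAC (FOXO core) and TGACTCA (AP-1 core).
Mcl1 upstream: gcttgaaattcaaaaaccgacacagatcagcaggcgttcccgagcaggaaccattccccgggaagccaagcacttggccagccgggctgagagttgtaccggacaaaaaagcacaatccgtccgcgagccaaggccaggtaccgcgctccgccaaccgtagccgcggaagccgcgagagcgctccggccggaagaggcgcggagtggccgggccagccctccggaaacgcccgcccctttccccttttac
Bcl2l1 upstream: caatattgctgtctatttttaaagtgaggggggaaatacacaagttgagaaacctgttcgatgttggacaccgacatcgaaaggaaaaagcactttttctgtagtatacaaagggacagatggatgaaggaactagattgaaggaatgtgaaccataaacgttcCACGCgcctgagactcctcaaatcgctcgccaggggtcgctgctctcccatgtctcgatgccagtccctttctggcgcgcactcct
Bcl2l11 upstream: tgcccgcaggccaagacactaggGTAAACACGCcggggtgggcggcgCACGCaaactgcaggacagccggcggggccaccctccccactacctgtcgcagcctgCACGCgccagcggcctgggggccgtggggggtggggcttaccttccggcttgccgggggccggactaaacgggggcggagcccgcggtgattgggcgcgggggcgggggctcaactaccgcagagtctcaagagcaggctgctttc
Bbc3 upstream: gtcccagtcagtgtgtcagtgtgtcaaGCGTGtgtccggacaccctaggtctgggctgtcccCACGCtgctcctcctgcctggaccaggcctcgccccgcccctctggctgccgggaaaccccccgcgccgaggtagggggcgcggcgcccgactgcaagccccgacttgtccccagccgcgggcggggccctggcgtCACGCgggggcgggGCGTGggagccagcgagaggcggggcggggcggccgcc
Bnip3 upstream: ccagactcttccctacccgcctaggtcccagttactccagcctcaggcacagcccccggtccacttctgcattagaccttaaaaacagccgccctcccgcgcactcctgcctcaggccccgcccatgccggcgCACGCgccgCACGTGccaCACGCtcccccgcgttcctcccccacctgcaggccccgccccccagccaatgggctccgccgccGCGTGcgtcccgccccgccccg

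These windows differed in the letters they held. Mcl1 had no match to the 4 motifs, and Bcl2l1 had 1 match to GCGTG. Bcl2l11 had 3 matches to GCGTG, 1 of which overlaps its match to TGTTTAC, and Bbc3 had 4 matches to GCGTG. Bnip3 had 3 matches to GCGTG and a palindrome that matches ACGTG on both strands. Of 32851 RefSeq windows of 250 bases before a start, 28.2% hold GCGTG, 16.6% ACGTG, 4.46% TGACTCA and 3.17% TGTTTAC. Among the 9 members with a window in the table, 4 hold GCGTG, 1 holds ACGTG, 1 holds TGTTTAC and 0 hold TGACTCA. Besides Bcl2l1, Bcl2l11 and Bbc3, the member holding GCGTG was Bad, which was not called and had 3 matches. A match is a description of these letters and does not show a site in use.

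Levels of different genes were compared per kilobase of the longest coding transcript. In the libraries labelled male, Mcl1 stood first at 114 ± 20.8 normalized reads per kb (SD, n = 3), followed by Bax at 87.7 ± 2.59 and Bcl2l1 at 53.5 ± 8.77. Bak1 (28.6), Pmaip1 (21.1) and Bcl2l11 (14.6) came next, then Bad (10.4) and Bbc3 (9.52), whose library ranges overlapped, then Bid (3.83) and Bcl2 (1.78). In the libraries labelled female, Bax stood first at 99.5 ± 0.774 per kb, ahead of Bcl2l1 at 74.9 ± 2.16 and Mcl1 at 63.5 ± 1.63. Mcl1 thus went from first to below both Bax and Bcl2l1. Pmaip1 followed at 51.4 ± 3.90 and Bak1 at 44.6 ± 0.750, and after a gap Bad (8.65), Bcl2l11 (8.07), Bbc3 (4.90), Bid (3.39) and Bcl2 (2.16). In this order the ranges of Bad and Bcl2l11 overlapped, and those of all other neighbours were apart. The place of Bbc3 depends on the transcript length used, since with the median length of its coding transcripts, a choice made after seeing the data, its male level was 35.6 per kb, above Pmaip1 and Bad and with a range overlapping those of Bak1 and Bcl2l11. With that length Bak1 also stood above Pmaip1 in the female group (64.8 and 55.3), while the first 3 places in each group were held by the genes named above.

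**Figure D3:**
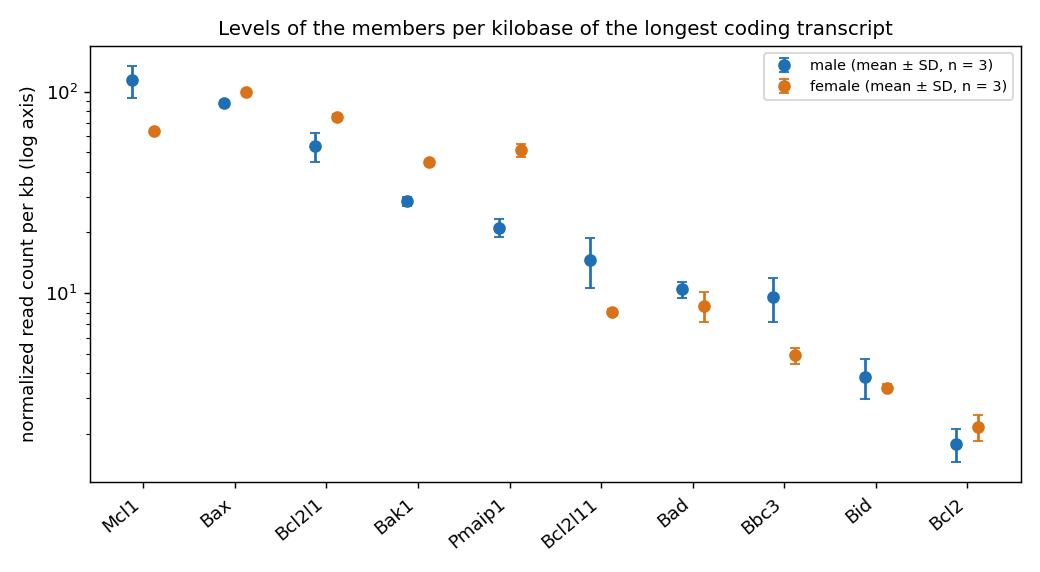
Normalized read count per kb of the longest coding transcript (y axis, log scale) for each member (x axis, ordered by the male mean), as mean ± SD over 3 libraries labelled male (blue) and 3 labelled female (orange). Mcl1 is first in the male group at 114 per kb and below Bax (99.5) and Bcl2l1 (74.9) in the female group, and Bcl2 is last in both.

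Survival and death members were then set against each other within each library. The mean log2(value + 1) of the 3 survival members minus that of the 7 death members was 1.62, 1.07 and 1.24 in male 4, 5 and 6 and 1.21, 1.22 and 1.44 in female 4, 5 and 6. The groups overlapped, with means of 1.31 ± 0.281 and 1.29 ± 0.131 (SD, n = 3), and the female minus male difference was -0.02. It was 0.13 without male 4. This mean contrast did not separate the groups, although 7 of its 10 members were called.

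Of the 21 log2 ratios of a survival to a death member, 6 were higher and 6 lower in all 3 female libraries than in all 3 male libraries, and 9 overlapped. Among the ratios of the same 3 survival members to every other tested gene, 34.4% were apart and higher and 33.9% apart and lower, so the 12 of 21 are not above the share for other genes. The 21 pairs share their genes and are not independent.

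The log2 ratio of Mcl1 was lower, with groups apart, against 4 of the 7 death members and against 72.8% of all other tested genes, and higher against 0 of 7 and 10.6%. The count for the death members is thus not above that for other genes. Its log2 ratio to Pmaip1 was 2.86, 2.61 and 2.76 in male 4, 5 and 6 and 0.52, 0.61 and 0.77 in female 4, 5 and 6. The change of -2.11 in this ratio was the largest of the 21. Against Bak1 the difference was -1.47, against Bax -1.01 and against Bid -0.68, each with groups apart. Against Bcl2l11, which fell by nearly the same amount, the log2 ratio differed by -0.0019 and the groups overlapped.

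The ratio of Bcl2l1 was higher, with groups apart, against 4 of the 7 death members and 56.2% of all other tested genes, and lower against 1 of 7, Pmaip1, and 13.6%. These shares are near each other. Its log2 ratio to Bbc3 was 3.69, 2.53 and 2.81 in male 4, 5 and 6 and 4.34, 4.53 and 4.44 in female 4, 5 and 6. This difference was 1.43, and those to Bcl2l11 (1.32), Bad (0.78) and Bax (0.31) also had groups apart. The ratio to Pmaip1 was lower by 0.79, with every female library below every male library. Against Bak1, which rose by more than Bcl2l1, the groups overlapped (-0.15). Bcl2 had groups apart for 3 pairs, higher against Bbc3 (1.22) and Bcl2l11 (1.11) and lower against Pmaip1 (-1.0), where 36.5% and 15.2% of all other tested genes were so placed.

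**Figure D4:**
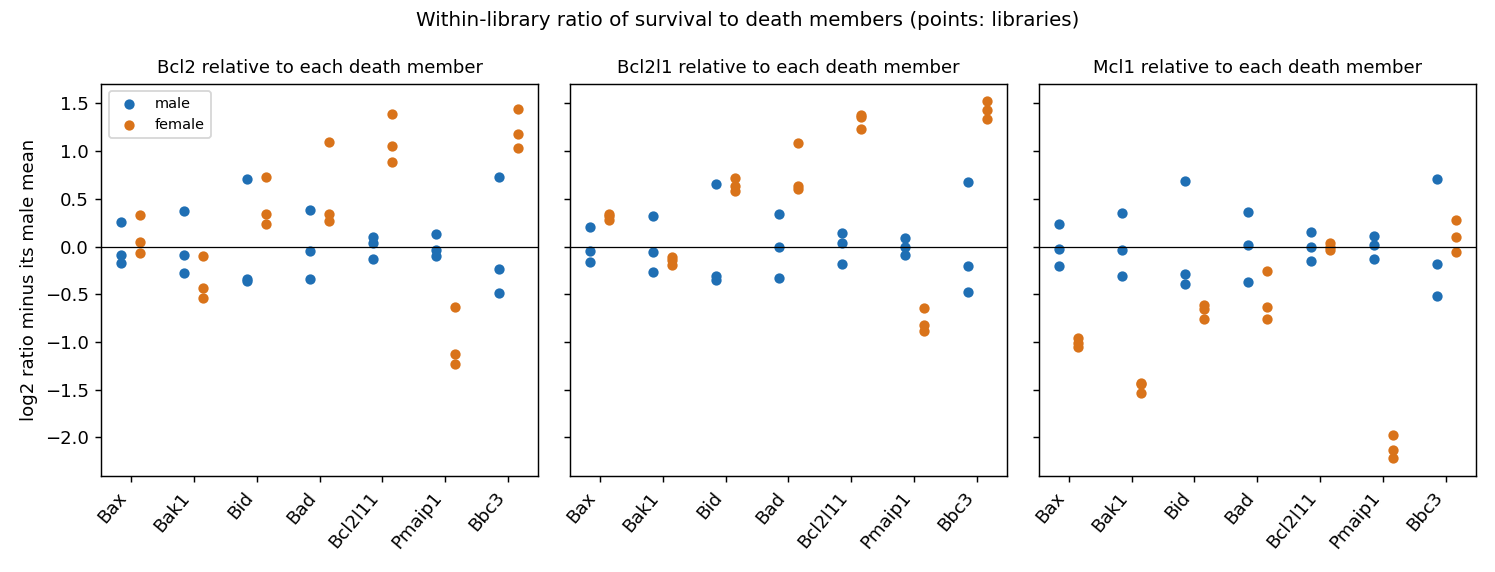
Log2 ratio of each survival member (panels) to each death member (x axis) in every library, after subtraction of the male mean of that ratio (y axis), with male libraries in blue and female libraries in orange. Mcl1 relative to Pmaip1, Bak1 and Bax lies below all male points, and Bcl2l1 relative to Bcl2l11 and Bbc3 lies above them.

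Relatives outside the 10 members were taken from a list of 17, of which 11 were in the table and 9 were tested, with 2 called higher and 4 lower. That is 66.7% called, near the 69.3% of all tested genes. Bok, a pore-forming relative of Bax and Bak1, had the largest fall of these genes. It was at 39.3, 40.7 and 48.3 in male 4, 5 and 6 and at 6.60, 6.90 and 5.89 in female 4, 5 and 6. The groups did not come near each other, and the female level was 15.1% of the male level (log2 fold change -2.55; SE 0.11; adjusted p of 3.04e-07 by limma). The direction was opposite to that of Bax and Bak1.

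Bcl2l15, a little studied relative, had the largest rise. It had 4, 6 and 4 reads in male 4, 5 and 6 and 160, 133 and 113 reads in female 4, 5 and 6, or a normalized read count of 0.179 ± 0.0451 against 5.96 ± 0.641 (SD, n = 3). The log2 fold change of 2.56 (SE 0.12; adjusted p of 4.85e-07 by limma) understates this because of the added 1, and edgeR on recovered reads gave 5.02. Of its 50-base stretches, 21.9% also occur in Gm43064, a gene annotated on the same strand over part of its exons, so its value is uncertain to that extent.

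Bnip3 and Bnip3l, mitochondrial proteins known as hypoxia-induced receptors for mitophagy, both fell. Bnip3 was at 1390, 971 and 1022 in male 4, 5 and 6 and 415, 452 and 535 in female 4, 5 and 6, a log2 fold change of -1.26 (SE 0.15; adjusted p of 9.30e-05 by limma). Bnip3l was at 563, 404 and 429 and at 246, 272 and 291, with a log2 fold change of -0.77. All female libraries were below all male libraries for each. They share 21.9% and 23.4% of their 50-base stretches with pseudogenes or other genes, and 22.3% of the exonic bases of Bnip3 overlap Gm45507 on the opposite strand.

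Bmf, a BH3-only gene tied to the cytoskeleton, fell from 4.76 ± 1.95 to 1.85 ± 0.129 (SD, n = 3), with male 4 again the highest library. Its difference was -0.97 on the log2(value + 1) scale (limma adjusted p 0.00340) and -1.37 by edgeR on recovered reads. Bnip2 was called higher by 0.18 (limma adjusted p 0.0455), which is a marginal call, as it was lost with edgeR on recovered reads (adjusted p 0.0701) and without any single library other than male 4. Bcl2l2, a survival relative, did not pass (log2 fold change -0.25, limma adjusted p 0.170), and its value was -0.05 without male 4. Bcl2l12 (-0.20, and -0.43 without male 4) and Bcl2l13 (0.13) did not pass either. Bcl2a1b and Bik were at 4 reads or fewer in every library and were not tested. The other 6 relatives of the list were not among the genes of the deposited table.

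The steps that follow pore opening were described with a list of 18 genes, all tested, of which 7 rose and 5 fell. The share called, 66.7%, was near the 69.3% of all tested genes, and the median log2 fold change was -0.05. On the log2(value + 1) scale, by which genes of each list are ranked here, Cycs, cytochrome c, had the largest rise, at 196% of its male level (log2 fold change 0.96; SE 0.06; adjusted p of 2.12e-06 by limma), and 28.2% of its 50-base stretches recur in other genes, among them pseudogenes. The low gene Dffb, a subunit of the nuclease that cuts DNA in apoptosis, rose more as a ratio, to 304% (0.81 to 2.46). Birc3, a ubiquitin ligase that restrains caspase 8 activation, had the largest fall, from 41.8 ± 6.04 to 15.5 ± 1.76 (SD, n = 3), a difference on that scale of -1.37. Other genes of this and the following lists were picked after their values were seen. Apaf1, the scaffold of the apoptosome, rose by 0.68, while Xiap, a caspase inhibitor, fell by 0.34, both on the log2 scale, or by 0.79 for Xiap with the correction for GC content and length.

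Of 12 tested genes of death receptors and their adaptors, 6 rose and 3 fell (75.0% called, against 69.3% of all tested genes), with a median log2 fold change of 0.32. Cflar, which encodes the caspase 8 inhibitor FLIP, had the largest rise on that scale (0.97, SE 0.24, limma adjusted p 0.00609), at 185% of its male level. Tnfsf10, which encodes the ligand TRAIL, rose more as a ratio, to 224% from a low level (1.79 to 4.02). For Cflar the male libraries were at 272, 140 and 134, so that male 4 lay apart, and the female libraries at 342, 335 and 334. Tnfrsf1a, the main receptor for tumour necrosis factor, had the largest fall, to 52.2% of its male level (-0.93). Tnfrsf10b, the mouse TRAIL receptor, rose by 0.84, and Casp8, the protease that cuts Bid, fell by 0.51 on the log2 scale.

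Transcription factors known to act on BH3-only genes were listed with Trib3, a pseudokinase, and Chac1, an enzyme that degrades glutathione, which are not transcription factors. Of 13 tested genes, 3 rose and 8 fell (61.5%, against 34.6% of all tested genes), and the median log2 fold change was -0.71. Without Trib3 and Chac1, a choice made after seeing the data, 2 of 11 rose and 7 fell, with a median of -1.31. Jun, which encodes an AP-1 subunit, had the largest fall, from 594 ± 116 to 75.7 ± 1.87 (SD, n = 3), a difference on that scale of -2.94. Foxo1 and Foxo3, activators of Bcl2l11 and Bbc3 in many cells, were at 38.5% and 39.9% of their male levels, with log2 fold changes of -1.35 and -1.31. Hif1a (-2.18), Epas1 (-2.02) and Ddit3, which encodes CHOP (-1.84), also fell. Myc had the largest rise on the log2(value + 1) scale (1.84, SE 0.31, limma adjusted p 0.000771), with 81.5, 35.5 and 30.6 in male 4, 5 and 6 and 165, 152 and 172 in female 4, 5 and 6. Chac1 rose more as a ratio, to 425% of its male level (2.61 to 11.1) against 332% for Myc. Trp53, which encodes p53, rose by 0.52 on the log2 scale.

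The p53 targets outside the family did not share 1 direction. Of 16 tested, 8 rose and 5 fell (81.2% called), where 69.3% of all tested genes were called, and the median log2 fold change was 0.35. Perp, a membrane protein, rose from 16.7 ± 0.671 to 141 ± 7.36 (SD, n = 3), a difference on that scale of 3.0 (SE 0.07; adjusted p of 2.04e-08 by limma), and Plk2 rose by 1.75. Cdkn1a, which encodes the cell cycle inhibitor p21, had the largest fall on the log2(value + 1) scale (-1.05), to 48.1% of its male level, with Sesn2 next to it at 47.9% (-1.04). Within the family itself, the p53 targets Pmaip1 and Bax rose and Bbc3 fell.

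Genes for the turnover, phosphorylation and anchoring of family proteins were 11 higher and 7 lower of 25 tested, or 72.0% called, near the 69.3% of all tested genes. Usp9x, a deubiquitinase that stabilises MCL1, had the largest rise at 212% of its male level (1.09, SE 0.08, limma adjusted p 8.82e-06). With the correction for GC content and length the log2 fold change of Usp9x was 0.58. Huwe1 (0.54, and 0.18 so corrected) and Fbxw7 (0.94), ligases that direct MCL1 to the proteasome, rose as well. Other ubiquitin ligase genes of the list went both ways, with Cul5 higher (0.29) and Rnf7 (-0.41), Btrc (-0.29) and March5 (-0.28) lower. Akt1 (0.95), a kinase that phosphorylates BAD, also rose. Ppp3ca, a subunit of calcineurin, which dephosphorylates BAD, had the largest fall, to 36.4% of its male level (-1.44). Of 10 proliferation genes, 2 rose and 5 fell, which is also near that share, with Mki67 at 1.23 and Aurkb at -0.77.

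**Figure D5:**
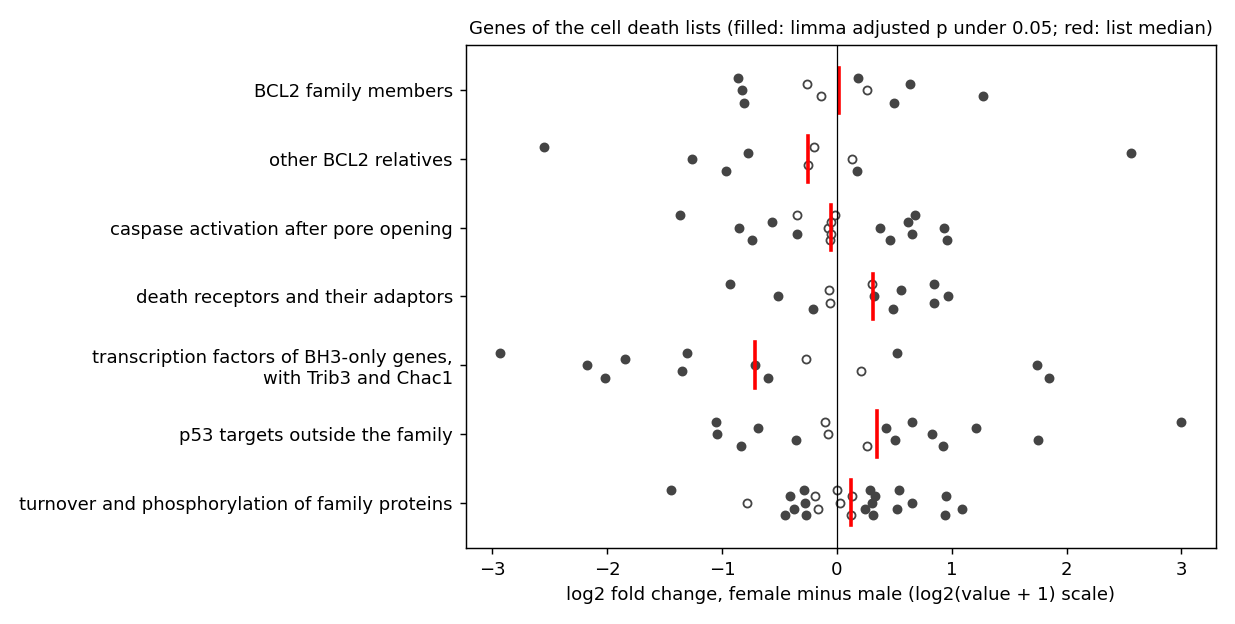
Log2 fold change, female minus male, of each tested gene (points, filled where the limma adjusted p was under 0.05) in the 10 members and 6 further lists (y axis), with the list median as a red bar. The median is 0.02 for the members and -0.71 for the list of transcription factors with Trib3 and Chac1, where 8 of 13 genes fell.

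The genes most like 2 members in their pattern over the 6 libraries were found by Pearson's r of log2(value + 1) among 8975 other genes with a mean of at least 10. For Mcl1, the survival member with the largest change, these were Cnnm3, Sntb2 and F11r, each with r of at least 0.998. For Pmaip1, the death member with the largest change, they were Ptgs2, Gpr176 and Tnfrsf23, each with r of at least 0.999. Such values were common, since 972 genes had r above 0.95 with Mcl1 and 1595 with Pmaip1, and the points share the split between the labelled groups.

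The authors' deposited table gives its own comparison, in which 25.8% of the 13595 genes passed a false discovery rate of 0.05 (12.0% upward and 13.8% downward). The authors' deposited table had Bak1 as the sole higher member (fold change 1.56, false discovery rate 0.0255), and 2 members lower, Mcl1 (-1.79, 0.00517) and Bbc3 (-1.94, 0.0426). The authors' deposited table lists Pmaip1 at a fold change of 2.43 with a false discovery rate of 0.107, Bcl2l11 at -1.81 with 0.0645, Bcl2l1 at 1.40 with 0.161 and Bax at 1.13 with 0.632. The directions of all 7 members called by limma were those of the authors' deposited table, and 4 of the 7 were not called there.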

How the data were processed

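The authors deposited a table of normalized signal (read counts divided by a library factor). In each of 6 columns, 100% of values were whole multiples (tolerance 0.01) of what 1 read is worth there. The submitters' processing notes name Bowtie2, RSEM, edgeR and mm39, without roles, and the filter for detectable genes is not given in the sources used here. The deposited fold change is a signed linear score and the deposited p-values and false discovery rates are the authors', per the file header. Columns were assigned by title, leaving 0 unassigned. Depth was 22303270 to 31189363 reads, and 3 reads correspond to 0.106 to 0.142.

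limma 3.58.1 (R 4.3.3, eBayes with trend) compared log2(value + 1) of 3 female and 3 male libraries over 12568 genes reaching 1 in 3 or more libraries, with Benjamini-Hochberg adjustment and a threshold of 0.05. The pseudocount understates changes of low genes. The script was tested on simulated reads. Members, lists and naming rule were chosen with earlier results of these data known. All 10 members were named, every called relative, and from each further list the largest called rise and fall, plus the 3 genes most like the survival and the death member with the largest change. Alternatives, including edgeR 4.0.16 and DESeq2 1.42.0 on recovered reads, are in the closing section. Transcript lengths, exon overlaps and 50-base matches came from GENCODE M21 (GRCm38), and upstream sequences, matched by symbol, from RefSeq. The deposited table holds no coordinates.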

Additional observations from a re-analysis of the deposited data

How the results depend on the processing

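A further limit of 1 on the size of the log2 fold change left 2589 of 8704 genes, and by its construction 0 survival members higher, 0 lower, 1 death member higher (Pmaip1) and 0 lower. Under the other alternatives that used all 6 libraries the counts were 1 survival member higher and 1 lower, 2 or 3 death members higher and 2 lower, and 8236 to 9085 genes in all. edgeR on recovered reads called 8975 of 13199 genes. Leaving out each library in turn gave 7373 to 9113 genes, 1 to 2 survival members higher (2 without male replicate 4), 1 lower, 2 to 3 death members higher and 2 to 3 lower.

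Libraries with the same number did not deviate together (correlations of deviations -0.09, -0.03 and -0.17). The replicate block gave 8314 genes, and Bax (limma adjusted p 0.0503) and Bnip2 (0.0809) missed the threshold. No value reversed among the members, relatives and list genes recomputed, while markers other than Pecam1 and Myh11 and the genes most like Mcl1 and Pmaip1 were not recomputed. Bnip2 also missed the threshold with RLE size factors, DESeq2, voom and the GC and length correction. Bcl2l12 passed as lower without male replicate 4 and Bcl2l13 as higher with quantile normalization (0.18). The survival minus death difference ran from -0.14 to 0.0012 across scalings, pseudocount and the GC and length correction, and from -0.14 to 0.13 when each library was left out. The cause of these changes was not tested. No scaling moved the median of all genes by more than 0.1 on the log2 scale. With the median coding length, male levels per kb rose for 10 of 10 members, Bbc3 from 9.52 to 35.6. With 1 read worth 0.0353 to 0.0475, Bik and Bcl2a1b lay within 4 reads of 0, where these depths give little precision.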
